A study of Mus musculus with 4 samples.

Results

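Xenobiotic and aldehyde metabolism enzymes were measured in male mouse stomach, in 2 strains. Members were chosen by gene symbol alone, not by signal. A member is a probe with exactly 1 annotated symbol that begins with Cyp and a digit (without Cyp51 and Cyp3a44), Gst, Ugt, Sult, Aldh, Akr or Ces, or Adh and a digit, or that is Nqo1, Gclc, Gclm or Ephx1. Of 33012 probes on the array, which name 13840 genes singly, 149 (144 genes) matched, and the 94 probes (91 genes) with a value on at least 2 of the 4 arrays were kept. No probe carried the symbol Nqo1. Of the 94, 68 probes of 67 genes had a value on all 4 arrays and were compared between the strains, 12 had a value on 3 arrays and 14 on 2. Wild-type animals were inbred C57BL/6J mice. The others were homozygous B6.CAST-17 congenic mice, a strain whose name places a chromosome 17 segment of CAST origin on that background. Each array held a pool of stomach RNA from 3 males, with 2 pools and 6 animals per strain as the design text and sample titles give them (a label's description counts 4 samples a strain), so the spread between single animals was not measured. All mice ate chow and had been without food for 4 h. The study's title concerns Glp1r expression and gastric emptying, and the comparison of the strains is the only one its design holds.

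Foreign compounds and reactive metabolites are handled in steps. Cytochromes P450 and esterases oxidise or cleave a compound, aldehyde dehydrogenases, alcohol dehydrogenases and aldo-keto reductases convert alcohols, aldehydes and ketones, and transferases attach glutathione, glucuronic acid or sulfate so that the product can be exported. The liver is the main site of this chemistry, while the gastric mucosa is known for its own set, among them alcohol and aldehyde dehydrogenases that meet ingested alcohol and retinoids. Many of these genes lie in clusters of close copies. Probes of the Cyp2a, Cyp2b, Cyp2c, Cyp2d, Cyp3a, Ces1, Gstm and Ugt2b families may therefore share signal, and their values are uncertain to that extent.

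An array gave a value for between 16320 and 16954 probes. Of the stomach's own parietal cell list, 10 of 12 genes were compared, and Slc26a7 had no value on any array. The proton pump subunit Atp4a read 19.58 and 19.51 in the congenic pools and 19.77 and 19.75 in the wild-type pools. Atp4b read 18.74 to 18.82. None of the 10 passed (median difference -0.23 on the log2 scale), and 4 had an unadjusted p under 0.05 in limma, all lower. None of 5 compared chief cell genes passed. All 5 were positive (median 0.29), 2 with an unadjusted p under 0.05 in limma. The 2 were Bhlha15 (0.29) and Rnase1 (0.61), and the same Rnase1 probe is also counted in the exocrine pancreas list. None of 9 surface and neck mucous cell genes passed (median 0). Markers of neighbouring tissues moved with strain. Of the exocrine pancreas list, 10 of 16 compared genes passed, all higher in the congenic pools (median difference 0.91 on the log2 scale). Of the liver list, 2 of 11 passed, both higher (median 0.70), and of the skeletal muscle list 3 of 9 passed, all lower (median -1.08). In limma none passed among 14 squamous forestomach genes (median -0.17) or 9 intestinal enterocyte genes (median -0.0031), and 4 of each had an unadjusted p under 0.05. The counts depended on single pools. Without congenic pool 1 or 2 the pancreas count was 5 or 6 and the liver count 0 in both cases, and without congenic pool 1 the muscle count was 1. The liver median was 0.43 without wild-type pool 1. In pooled tissue, fewer cells of a type and less RNA per cell cannot be told apart. Differences below subtract the wild-type mean from the congenic mean of log2 signals, are given ± SE with n = 2 pools a strain, and a value of 1 is a doubling. A gene passed when its limma p, adjusted over all 13475 probes compared, was under 0.05.

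None of the 68 compared enzyme probes passed, against 64 of all 13475 probes (0.475%). The smallest adjusted p among them was 0.1516 in limma, for Ugt2b34. An unadjusted p under 0.05 was reached by 15 members (22.1%), 11 higher and 4 lower in the congenic pools. Over all probes 15.8% reached it, 7.12% higher and 8.66% lower. Leaving out congenic pool 1 or 2 gave 9 or 5 in place of 15, and leaving out wild-type pool 1 or 2 gave 15 or 8. The pools of the strains did not overlap for 38 members, 25 with the congenic pools above and 13 with them below, against 23.4% and 26.1% of all probes (49.4% in either direction). That share is the background for every statement below on strains that did not overlap. The median difference over the members was 0.033, beside -0.0020 over all probes, and the median size of a difference was 0.15 for both. For 61 of the 68 the 95% interval of the difference lay within 1 log2 of 0, as it did for 88.3% of all probes, so a doubling or halving lay outside those intervals. The plot of differences by enzyme class shows that most points lie close to 0. The highest is Gstm2 of the glutathione transferases, which 1 array set, followed by Cyp2d26 of the xenobiotic P450s. The direction of 26 of the 68 differences changed when 1 of the pools was left out, and 24 more kept their direction but moved by over 1.5 times. Ranges given below over the pools left out are of the difference.

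**Figure D1:**
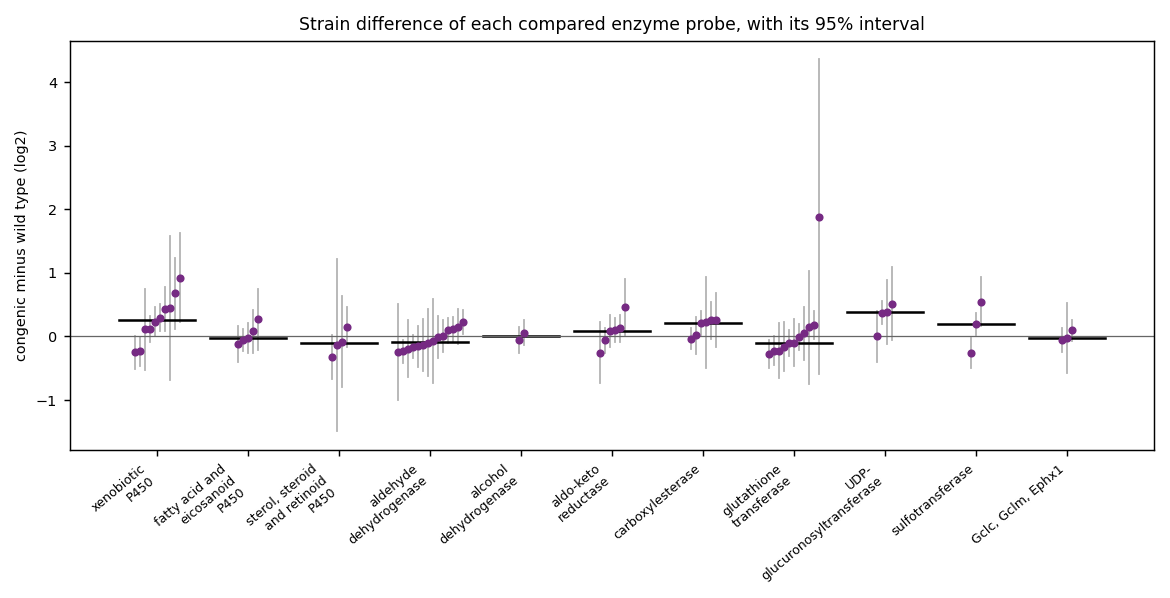
Difference between congenic and wild-type pools (log2, vertical axis) for each of the 68 compared probes, by enzyme class. Points are differences with n = 2 pools per strain, grey lines their 95% intervals from limma, and black bars the class medians, which lie between -0.11 and 0.38.

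The xenobiotic-metabolising P450s of families Cyp1 to Cyp3 had positive differences for 8 of 10 compared probes. By limma 0 passed, and 6 reached an unadjusted p under 0.05, 5 higher and 1 lower, against 15.8% of all probes. Their median was 0.26, or 0.16 without wild-type pool 2. Cyp2d26 read 11.07 and 10.71 in the congenic pools and 9.69 and 10.23 in the wild-type pools. Its difference was 0.93 ± 0.29 (1.90-fold, limma adjusted p = 0.2418), and both congenic pools lay above both wild-type pools by a margin of 0.48. Cyp2c29 read 12.58 and 13.16 in the congenic pools against 12.38 and 12.01, a difference of 0.68 ± 0.23 (limma adjusted p = 0.2563). The congenic pools stood above the wild-type pools but 0.58 apart from each other, and the difference was 0.39 without congenic pool 2 and 0.97 without congenic pool 1. Cyp2c70, which hydroxylates bile acids, read 13.90 and 14.16 against 13.75 and 13.46 (0.43 ± 0.14, limma adjusted p = 0.2503). Cyp2c23, an arachidonic acid epoxygenase, read 14.74 and 14.60 against 14.42 and 14.34 (0.30 ± 0.088). Cyp2e1, which oxidises ethanol and small solvents, read 14.21 and 14.25 against 13.91 and 14.08 (0.23 ± 0.093, or 0.15 without wild-type pool 1). In each of these 5 the strains did not overlap, which held for 49.4% of all probes. Nor did the strains overlap for Cyp3a13, a broad-substrate P450 of the gut, at 0.12 ± 0.082 with a margin of 0.05 (0.066 to 0.17 over the pools left out). The pools overlapped for Cyp2c55 (0.11 ± 0.26) and for Cyp2r1, a vitamin D 25-hydroxylase (0.45 ± 0.46). Both changed sign over the pools left out, from -0.088 to 0.32 for Cyp2c55 and from -0.028 to 0.92 for Cyp2r1.

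The other probes of that class pointed down. Cyp2s1, a P450 of epithelia at body surfaces, read 15.68 and 15.64 in the congenic pools and 15.79 and 16.00 in the wild-type pools (-0.24 ± 0.091, limma adjusted p = 0.3001). Cyp2f2, a P450 that activates naphthalene in the airway, read 15.72 and 15.43 against 15.80 and 15.85 (-0.25 ± 0.11). For both, the strains did not overlap, by a margin of 0.11 for Cyp2s1 and 0.0805 for Cyp2f2. Without wild-type pool 2 Cyp2s1 differed by -0.13, and Cyp2f2 by -0.11 without congenic pool 2 and -0.40 without congenic pool 1.

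Liver markers had positive differences, as had 8 of the 10 compared xenobiotic P450s. Cyp2f2 (-0.25) and Cyp2s1 (-0.24) of that class were negative. So were 3 of the 4 compared sterol, steroid and retinoid P450s, among them Cyp27a1 (-0.32) and Cyp7a1 (-0.081), and 3 of the 5 fatty acid and eicosanoid P450s. All 11 compared genes of the 20-gene liver list had positive differences, and 17 of the 20 had a probe. Albumin (Alb) read 13.87 and 13.99 in the congenic pools and 12.22 and 12.61 in the wild-type pools (1.52 ± 0.15, limma adjusted p = 0.0202), and hemopexin (Hpx) read 12.37 and 12.24 against 10.94 and 10.67 (2.82-fold, limma adjusted p = 0.0298). The log2 of the list's summed signal was 18.81 and 18.72 in the congenic pools and 18.62 and 18.64 in the wild-type pools. Most of that sum came from Ttr and Apoa1, which differed by 0.050 ± 0.077 and 0.055 ± 0.073, so it says little on the dimmer markers. No liver marker with a probe was blank on all 4 arrays. The part of liver RNA in the P450 differences was not tested. The plot of P450 probes beside the liver list shows the congenic pools to the right of the wild-type pools for most genes of both, further so for Alb, Hpx, Fgg and Ahsg than for any P450.

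**Figure D2:**
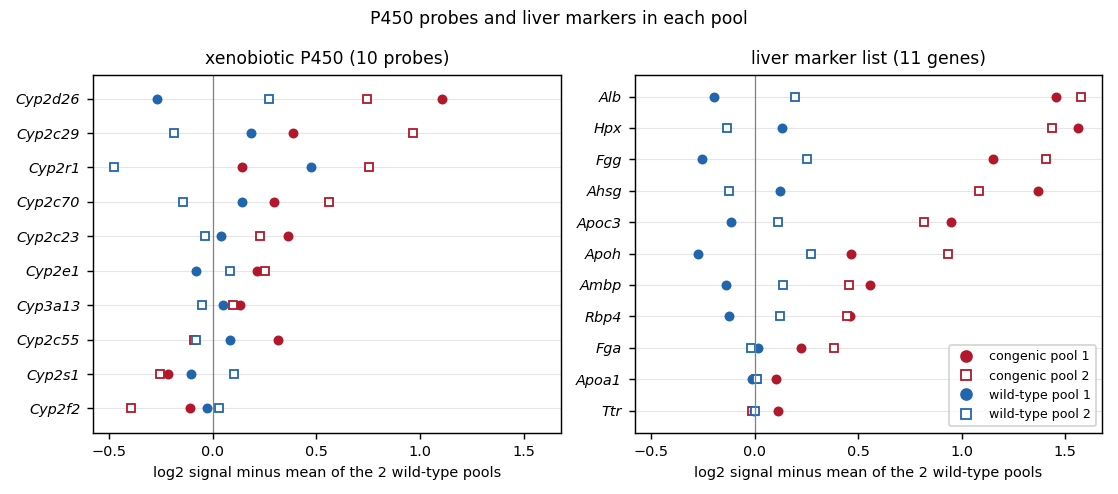
Signal in each pool (log2, minus the mean of the wild-type pools, horizontal axis) for the 10 compared xenobiotic P450 probes and the 11 compared liver markers. Red marks congenic pools and blue wild-type pools, with filled circles for pool 1 and open squares for pool 2, and the largest difference was 1.52 for the liver marker Alb and 0.93 for the P450 Cyp2d26.

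Probes with blanks were outside the fit and are described here with no test. Of the 94 members, 6 (6.38%) had a value on both congenic arrays and on neither wild-type array, against 2.47% of the 16978 probes with a value on at least 2 arrays. The reverse pattern was seen for 1 member (1.06%, against 1.17%). The 6 were kept among the members only through their congenic values, so nothing on the size of a strain difference is read from them. No source used here states the rule behind blanks, and blanks tracked a probe's level. An array was blank for 20% to 32.5% of probes whose mean on the remaining 3 arrays was under 10, and for 0.0244% to 1.38% of those with a mean over 14, so a blank was not read as an absent transcript. The 6 were Cyp2a4, Cyp2b10, Cyp2d9, Cyp3a16, Cyp8b1 and Ugt2b5, and the probes of all but Cyp8b1 may share signal with close copies. Cyp2a4, a steroid hydroxylase, read 10.99 and 11.65 in the congenic pools. Cyp2b10, a P450 induced by phenobarbital through the nuclear receptor CAR, read 9.81 and 9.87. Cyp2d9, a testosterone hydroxylase, read 10.72 and 10.55, and Cyp3a16 read 11.38 and 11.46. Cyp8b1, the sterol 12-alpha-hydroxylase of bile acid synthesis, read 10.29 and 9.63. Ugt2b5, a glucuronosyltransferase, read 10.75 and 10.72. Their mean congenic values lay between 9.84 and 11.42, and the median over all 419 probes of this pattern was 9.91. Of the 12 member probes with a single blank, 7 were blank in wild-type pool 1, 3 in congenic pool 1 and 1 in each other pool. Over all 1826 probes with a single blank, wild-type pool 1 held 38.8%.

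The promoters of these 6 genes are shown because their probes share that pattern. They run from 250 bases before to 50 after the start in RefSeq (GRCm38.p6), written 5′ to 3′ on the gene's strand. Capitals mark matches on either strand to the letters searched. These were TATAAA for the TATA box and CAAAGNCCA for the transcription factor HNF4. They were GTTAAT for the transcription factor HNF1 and TTGCNNAA for the family of C/EBP factors. They were TGACNNNGC for the core of the antioxidant response element and GCGTG for the core of the xenobiotic response element.
Cyp2a4, chr7:26306942-26307241, plus strand: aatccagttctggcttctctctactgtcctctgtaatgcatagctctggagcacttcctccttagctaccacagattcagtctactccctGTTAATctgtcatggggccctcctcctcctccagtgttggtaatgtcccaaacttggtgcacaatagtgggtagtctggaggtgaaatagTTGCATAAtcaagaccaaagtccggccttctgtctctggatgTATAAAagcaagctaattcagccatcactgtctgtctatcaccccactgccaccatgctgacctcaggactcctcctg
Cyp2b10, chr7:25897408-25897707, plus strand: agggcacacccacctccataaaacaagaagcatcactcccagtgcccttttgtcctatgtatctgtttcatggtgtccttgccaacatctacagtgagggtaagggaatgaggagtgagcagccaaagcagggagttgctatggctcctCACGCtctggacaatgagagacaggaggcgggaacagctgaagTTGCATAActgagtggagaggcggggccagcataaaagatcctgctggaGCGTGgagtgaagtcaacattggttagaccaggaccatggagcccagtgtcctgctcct
Cyp2d9, chr15:82452127-82452426, plus strand: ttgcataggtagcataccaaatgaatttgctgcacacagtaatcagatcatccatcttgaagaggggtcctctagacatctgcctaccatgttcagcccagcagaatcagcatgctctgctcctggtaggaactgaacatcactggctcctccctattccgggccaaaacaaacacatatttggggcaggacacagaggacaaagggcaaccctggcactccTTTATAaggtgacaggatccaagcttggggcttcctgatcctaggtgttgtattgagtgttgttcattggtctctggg
Cyp3a16, chr5:145469674-145469973, minus strand: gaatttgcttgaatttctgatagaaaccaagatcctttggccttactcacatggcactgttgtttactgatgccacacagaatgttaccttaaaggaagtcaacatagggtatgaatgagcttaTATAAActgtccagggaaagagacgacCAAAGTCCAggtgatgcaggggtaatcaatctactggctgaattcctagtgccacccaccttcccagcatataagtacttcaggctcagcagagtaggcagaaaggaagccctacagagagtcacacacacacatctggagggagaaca
Cyp8b1, chr9:121916256-121916555, minus strand: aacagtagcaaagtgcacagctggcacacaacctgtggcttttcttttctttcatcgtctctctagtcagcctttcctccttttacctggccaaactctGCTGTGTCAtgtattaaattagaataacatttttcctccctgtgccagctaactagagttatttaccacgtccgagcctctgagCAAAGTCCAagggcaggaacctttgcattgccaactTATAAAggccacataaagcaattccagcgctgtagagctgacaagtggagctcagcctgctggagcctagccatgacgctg
Ugt2b5, chr5:87140291-87140590, minus strand: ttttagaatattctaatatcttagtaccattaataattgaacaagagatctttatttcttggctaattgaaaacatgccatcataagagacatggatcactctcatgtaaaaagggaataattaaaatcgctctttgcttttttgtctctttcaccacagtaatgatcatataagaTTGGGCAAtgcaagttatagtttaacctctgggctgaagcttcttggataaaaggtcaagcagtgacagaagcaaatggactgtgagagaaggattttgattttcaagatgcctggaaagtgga
The 6 genes were kept through their congenic values, so nothing on a strain difference or on the tissue of origin is read from their letters. The HNF4 letters were found in Cyp3a16 and Cyp8b1, in 5.62% of 89 promoters of members (78 of the 91 genes had one) and in 1.98% of all 32851 promoters. The other member promoters with these letters were those of Cyp2c70, Aldh1a1 and Sult1b1. The C/EBP letters were found in Cyp2a4, Cyp2b10 and Ugt2b5, in 20.2% of member promoters and 10.8% of all. The TATA letters were found in Cyp2a4, Cyp3a16 and Cyp8b1 and, on the opposite strand, in Cyp2d9 (25.8% against 13.6%), and the HNF1 letters in Cyp2a4 alone of the 6 (7.87% against 7.1%). The xenobiotic response element letters were found in Cyp2b10 at 2 places (27% against 32.4%), and the antioxidant response element letters in Cyp8b1 (10.1% against 12.4%). Members include neighbouring copies with related promoters, and a match describes the letters only. No match overlapped another in the 6 promoters.

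Other P450 probes had blanks in no such order. Cyp1a2, an arylamine-oxidising P450, read 10.60 and 10.73 in the congenic pools and 9.71 in wild-type pool 2. Fitted on 3 arrays, with wild-type pool 1 missing, it differed by 0.96 ± 0.30 (limma adjusted p = 0.2818). In this and every other fit on 3 arrays, the strain with a lone array has no spread of its own and is assumed to vary like the other strain and the remaining probes. Cyp1a1, the classical target of the aryl hydrocarbon receptor, had a value only in congenic pool 1 (9.91) and wild-type pool 1 (10.51). Cyp2d22 read 10.46 in congenic pool 2 and 9.83 in wild-type pool 2. The plot of members with blanks shows the 6 congenic-only probes at its top and the lone wild-type-only probe, of Cyp4b1, at its foot.

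**Figure D3:**
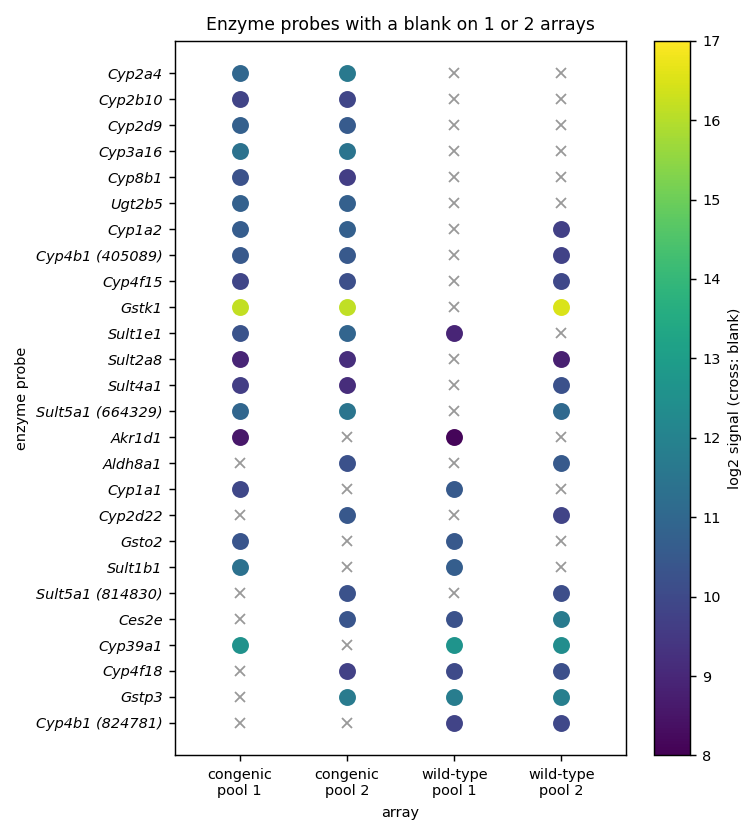
Each of the 26 enzyme probes with a blank on 1 or 2 arrays (rows) in the 4 pools (columns). Coloured circles give the log2 signal and crosses a blank, and 6 probes have values in both congenic pools and crosses in both wild-type pools.

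P450s that act on fatty acids and eicosanoids showed small differences. None of 5 compared probes passed or had an unadjusted p under 0.05 in limma, and the median was -0.025, or 0.029 with 1 blank allowed. Cyp2j6 read 16.92 and 16.98 against 17.04 and 16.98 in wild type (-0.059 ± 0.072, 95% interval -0.24 to 0.12). Cyp2j9 differed by 0.27 ± 0.20 (0.058 without wild-type pool 1) and Cyp4v3 by -0.025 ± 0.095. The 2 probes of Cyp4b1 disagreed. Probe 405089 read 10.49 and 10.48 in the congenic pools and 9.78 in wild-type pool 2, while probe 824781 was blank in both congenic pools and read 9.79 and 9.93 in the wild-type pools. Cyp4f18, of chromosome 8, was blank in congenic pool 1 and differed by -0.39 ± 0.35 on 3 arrays.

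The Cyp4f genes of chromosome 17, the chromosome named in the congenic strain, encode omega-hydroxylases of fatty acids and leukotrienes. Of these, 3 were members, and none passed. Cyp4f13 read 12.21 and 12.30 in the congenic pools and 12.06 and 12.28 in the wild-type pools (0.082 ± 0.14, 95% interval -0.25 to 0.42), and the pools overlapped. Cyp4f39 read 12.70 and 12.54 against 12.77 and 12.71 (-0.12 ± 0.11, 95% interval -0.40 to 0.16). Cyp4f15 read 9.90 and 10.17 in the congenic pools and 9.94 in wild-type pool 2, with a blank in wild-type pool 1. A change of 1 log2 lay outside the intervals of both genes measured on all arrays. Cyp39a1, an oxysterol hydroxylase also on chromosome 17, read 12.58 in congenic pool 1 and 12.68 and 12.39 in the wild-type pools.

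Sult1c2, a cytosolic sulfotransferase, is the other chromosome 17 member. It read 18.55 and 18.89 in the congenic pools and 18.35 and 17.99 in the wild-type pools. It differed by 0.55 ± 0.16 (1.46-fold, 95% interval 0.16 to 0.94) and did not pass (limma adjusted p = 0.2247). Both congenic pools lay above both wild-type pools, by a margin of 0.20. The difference was 0.38 without congenic pool 2 and 0.73 without wild-type pool 1. Sequence variants of CAST under its probe were not checked. Its RefSeq promoter, shown as that of the chromosome 17 member with the largest difference, held the C/EBP letters and no other motif searched, in capitals as above.
Sult1c2, chr17:53845909-53846208, minus strand: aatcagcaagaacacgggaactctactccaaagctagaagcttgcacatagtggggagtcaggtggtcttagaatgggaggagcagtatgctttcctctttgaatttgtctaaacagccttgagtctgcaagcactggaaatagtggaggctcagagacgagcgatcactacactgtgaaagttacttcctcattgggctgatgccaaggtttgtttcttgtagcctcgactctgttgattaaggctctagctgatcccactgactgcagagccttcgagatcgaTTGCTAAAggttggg

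P450s of sterol, steroid and retinoid metabolism gave 0 of 4 past the threshold in limma and 0 with an unadjusted p under 0.05. Cyp27a1, a sterol 27-hydroxylase of mitochondria, read 14.32 and 14.73 in the congenic pools and 14.91 and 14.79 in the wild-type pools (-0.32 ± 0.14). The congenic pools lay below, by 0.059 at the nearest, and the difference was -0.12 without congenic pool 1 and -0.53 without congenic pool 2. Cyp7a1, the rate-limiting enzyme of bile acid synthesis, read 10.20 and 10.46 against 10.11 and 10.71 (-0.081 ± 0.29). Cyp26b1, which degrades retinoic acid, differed by 0.14 ± 0.13 (0.022 without congenic pool 2). Cyp27b1, the vitamin D 1-alpha-hydroxylase, read 9.20 and 10.84 in the congenic pools, and its interval ran from -1.49 to 1.21, which leaves its direction unresolved.

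Aldehyde dehydrogenases, which oxidise aldehydes to acids, gave 14 compared probes, of which 5 were positive and 9 negative. By limma 0 passed, and 2 reached an unadjusted p under 0.05. Aldh1l1, the folate enzyme formyltetrahydrofolate dehydrogenase, read 15.04 and 15.04 in the congenic pools and 15.30 and 15.24 in the wild-type pools at probe 474409 (-0.23 ± 0.073, limma adjusted p = 0.2445). Its second probe, 357228, differed by -0.14 ± 0.17 with overlapping pools (-0.27 to 0.0028 over the pools left out). Aldh2, the mitochondrial enzyme that clears acetaldehyde, read 15.67 and 15.62 against 15.84 and 15.77 (-0.16 ± 0.073). Aldh9a1, which oxidises aminobutyraldehyde, pointed the other way, with 15.68 and 15.70 against 15.51 and 15.40 (0.23 ± 0.076, limma adjusted p = 0.2515). For all but the second Aldh1l1 probe, the strains did not overlap. Aldh1a1, a retinaldehyde dehydrogenase of the cytosol, read 18.08 and 18.16 against 18.07 and 17.97 (0.097 ± 0.078), and its relative Aldh1a7 differed by 0.11 ± 0.079. Aldh3a1, known from stomach and cornea, read 16.53 and 16.26 against 16.56 and 16.25 (-0.011 ± 0.14, 95% interval -0.35 to 0.32), with either sign over the pools left out (-0.17 to 0.15). Aldh6a1, of valine breakdown, differed by 0.0054 ± 0.10. The widest spread was in Aldh16a1, at 11.67 and 10.90 in the congenic pools, and in Aldh1a2, at 11.58 and 10.79 in the wild-type pools.

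Alcohol dehydrogenases gave 2 compared probes, 0 past the threshold in limma and 0 with an unadjusted p under 0.05. Adh7, the class IV enzyme of the upper digestive tract, read 17.37 and 17.38 in the congenic pools and 17.38 and 17.24 in the wild-type pools (0.062 ± 0.079, 95% interval -0.13 to 0.26). Adh1 read 17.24 and 17.33 against 17.42 and 17.27 (-0.061 ± 0.084, 95% interval -0.27 to 0.15). In both, the strains overlapped. Adh4 and Adh5 had a value on fewer than 2 arrays.

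Aldo-keto reductases, which reduce aldehydes and ketones with NADPH, gave 0 of 6 past the threshold in limma and 1 with an unadjusted p under 0.05. That gene was Akr1c6, a 17-beta-hydroxysteroid dehydrogenase, at 14.12 and 13.96 in the congenic pools and 13.85 and 13.31 in the wild-type pools (0.46 ± 0.18, limma adjusted p = 0.3029). It was the largest difference of the class in size, with wild-type pool 2 the lowest, and was 0.20 without that pool and 0.73 without wild-type pool 1. Akr1b8 differed by 0.13 ± 0.085, Akr1c14 by 0.10 ± 0.079 and Akr1a1, the aldehyde reductase, by 0.084 ± 0.10. Akr1b10 read 12.41 and 12.34 against 12.36 and 12.91 (-0.26 ± 0.19), so that wild-type pool 2 alone stood high.

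Carboxylesterases, which split esters and amides, lay above 0 for 5 of 6 compared probes with a median of 0.22, or 0.14 without wild-type pool 1. None passed, and 1 had an unadjusted p under 0.05 in limma. Ces1f read 14.71 and 14.78 in the congenic pools and 14.54 and 14.54 in the wild-type pools (0.21 ± 0.077). Ces1e read 12.41 and 12.35 against 12.11 and 12.14 (0.25 ± 0.12). Both had strains that did not overlap, and the wild-type pools were 0.0026 apart for Ces1f and 0.026 for Ces1e. Ces2a read 13.88 in congenic pool 2 and 13.34 to 13.39 in the other pools, and Ces1g read 10.12 in wild-type pool 1 and 10.64 to 10.82 elsewhere. Ces1d differed by 0.016 ± 0.12 and Ces2g by -0.034 ± 0.069. Ces1f and Ces1e are close copies on chromosome 8.

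Glutathione transferases were the best covered of the gene families, with 14 of 15 probes read on at least 2 arrays, against 17 of 34 xenobiotic P450 probes and 66.1% of all probes with 1 symbol. Of 11 compared probes 0 passed in limma, and an unadjusted p under 0.05 was found for 1. Gstm5 read 14.97 and 14.78 in the congenic pools and 15.13 and 15.17 in the wild-type pools (-0.27 ± 0.090, limma adjusted p = 0.2526), without overlap (-0.37 to -0.18 over the pools left out). Gstt1, a theta-class enzyme that acts on small halogenated compounds, read 13.25 and 13.25 against 13.43 and 13.52 (-0.23 ± 0.093). Gsta4, which conjugates the lipid aldehyde hydroxynonenal, read 19.62 and 19.67 against 19.72 and 19.78 (-0.10 ± 0.081). Gsta3 differed by 0.19 ± 0.090 and Gstp1 by 0.050 ± 0.17.

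Gstm2, a mu-class transferase, had the largest difference of all members, and 1 array set it. It read 17.34 and 17.21 in the congenic pools and 17.14 in wild-type pool 2, but 13.66 in wild-type pool 1. The difference was 1.88 ± 1.0 (3.69-fold, limma adjusted p = 0.418), with a 95% interval of -0.59 to 4.36. Without wild-type pool 1 it was 0.14, and without wild-type pool 2 it was 3.62 and passed (limma adjusted p = 7.62e-05), the only member to pass in any setting tried. Gstm2 was also the only member with a lone outlying array, taken as a gap of over 1 log2 to all 3 remaining arrays when these span under 0.5. Of all 13475 probes, 80 had wild-type pool 1 as such an array, 74 of them on the low side. The neighbouring family members Gstm1, Gstm4, Gstm5 and Gstm6 showed no such drop, at 12.61, 11.09, 15.13 and 14.40 there against 13.01, 10.07, 15.17 and 14.16 in wild-type pool 2. Gstk1, the mitochondrial and peroxisomal kappa-class enzyme, was blank in wild-type pool 1. It read 16.17 and 16.12 in the congenic pools and 16.50 in wild-type pool 2, a difference of -0.35 with a single wild-type array behind it. The plot of all compared probes by pool shows Gstm2 in wild-type pool 1 as the point furthest to the left.

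**Figure D4:**
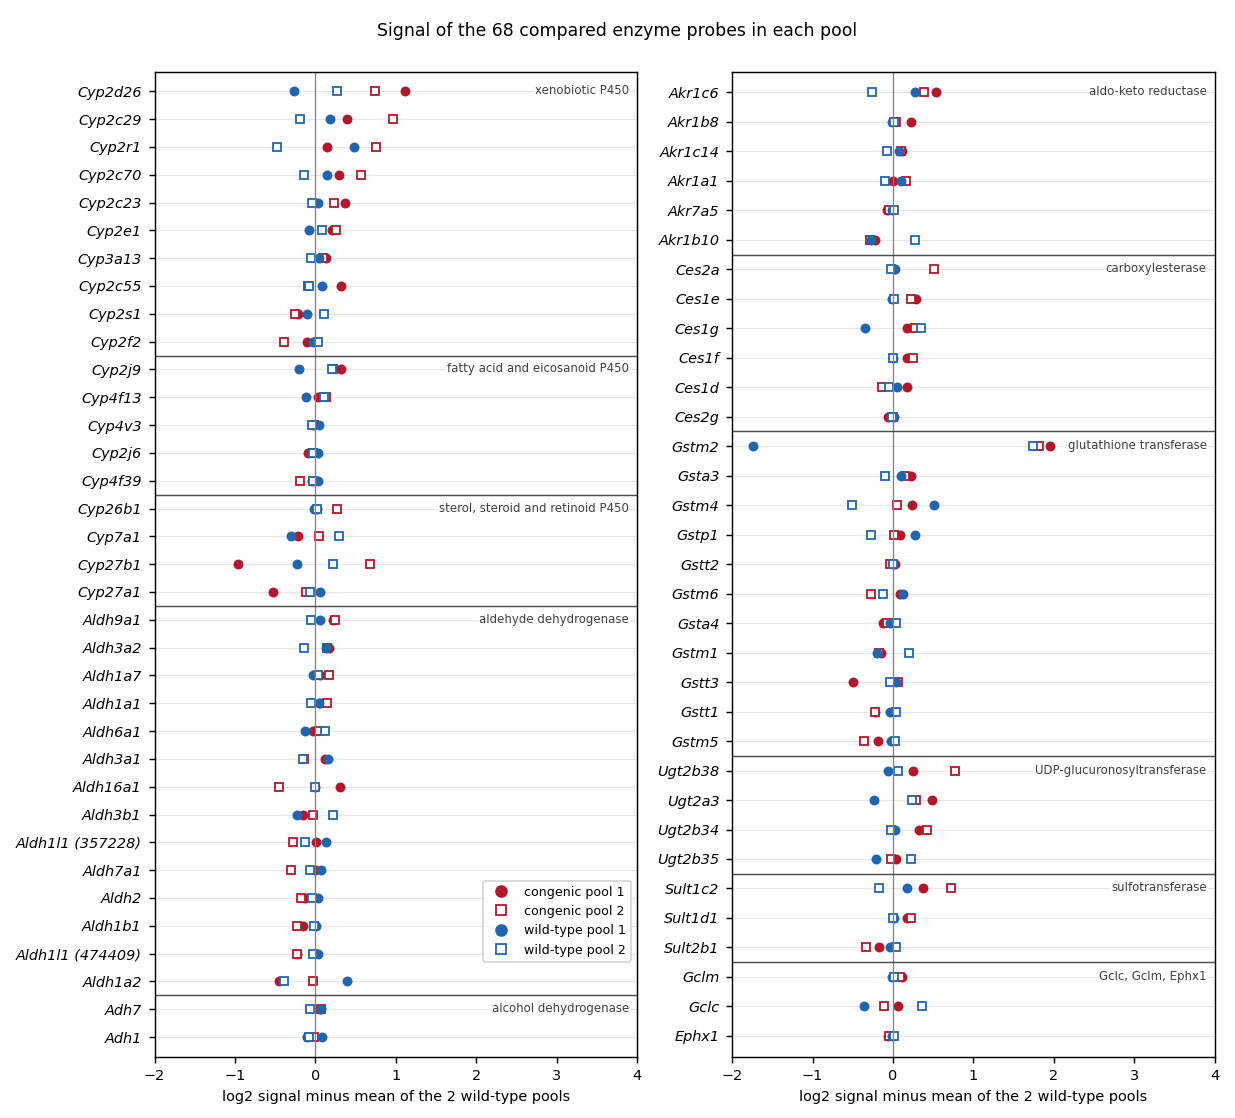
Signal of each of the 68 compared probes in each pool (log2, minus the mean of the wild-type pools, horizontal axis), grouped by enzyme class. Red marks congenic and blue wild-type pools, with filled circles for pool 1 and open squares for pool 2, and Gstm2 in wild-type pool 1 (13.66) stands apart from its other pools (17.14 to 17.34).

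UDP-glucuronosyltransferases, which attach glucuronic acid, were positive for all 4 compared probes, with a median of 0.38 (between 0.28 and 0.46 when 1 pool was left out). Ugt2b34 read 17.15 and 17.25 in the congenic pools and 16.85 and 16.79 in the wild-type pools. It differed by 0.37 ± 0.075 (1.30-fold, 95% interval 0.19 to 0.56), with the congenic pools above by a margin of 0.295. It had the smallest p among the members and did not pass (limma adjusted p = 0.1516). Ugt2b38 read 10.97 and 11.48 against 10.65 and 10.78 (0.51 ± 0.23), and Ugt2a3 read 11.85 and 11.66 against 11.13 and 11.61 (0.39 ± 0.21). Over the pools left out Ugt2b38 ran from 0.25 to 0.77 and Ugt2a3 from 0.15 to 0.63. In these 3 the strains did not overlap, which held for 49.4% of all probes. They overlapped for Ugt2b35 at 12.71 and 12.65 against 12.46 and 12.89 (0.0049 ± 0.16), whose sign depended on which pool was left out. All 4, and Ugt2b5, lie on chromosome 5 and may share signal.

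Sulfotransferases other than Sult1c2 pointed both ways. Sult1d1, which sulfates catecholamines and small phenols, read 15.79 and 15.84 in the congenic pools and 15.62 and 15.61 in the wild-type pools (0.20 ± 0.070, limma adjusted p = 0.2726). Sult2b1, the hydroxysteroid and cholesterol sulfotransferase of squamous epithelium, read 13.72 and 13.57 against 13.87 and 13.93 (-0.25 ± 0.097, limma adjusted p = 0.2963). Neither overlapped between the strains. Squamous forestomach markers had negative differences for 9 of 14 genes beside it, and their summed signal (log2) was 22.36 and 22.37 in the congenic pools and 22.35 and 22.34 in the wild-type pools. Whether they bear on Sult2b1 was not tested. Sult1e1, the estrogen sulfotransferase, read 10.29 and 10.90 in the congenic pools and 8.92 in wild-type pool 1, with a blank in wild-type pool 2. Fitted on those 3 arrays it differed by 1.67 ± 0.41 (limma adjusted p = 0.2186), with a single wild-type array behind it.

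Gclc and Gclm, the catalytic and modifier subunits of the enzyme that limits glutathione synthesis, and Ephx1, the microsomal epoxide hydrolase, did not pass. Gclm read 16.75 and 16.72 in the congenic pools and 16.63 and 16.65 in the wild-type pools (0.099 ± 0.068), without overlap. Gclc read 15.44 and 15.27 against 15.02 and 15.74 (-0.027 ± 0.23), so that the wild-type pools enclosed the congenic pools. Ephx1 read 14.26 and 14.27 against 14.31 and 14.33 (-0.059 ± 0.077). Gclm and Gsta3 are textbook targets of the oxidant sensor NRF2, and the antioxidant response element letters stood in the promoters of both. The letters also stood in the promoters of Aldh9a1, Aldh1a2, Gstm5, Cyp2j6, Cyp4f18, Cyp4f39 and Cyp8b1. They were not found in the promoters of Ephx1, Gstm1 and Gstp1. Their share was 10.1% of member promoters against 12.4% of all, so the letters were no more frequent among the members.

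Related genes outside the families were taken from a list of 109, of which 72 were compared, with 31 positive and 41 negative differences and a median of -0.036. In limma 1 passed, higher, against 0.475% of all probes. It was Glo1, a glyoxalase encoded on chromosome 17, at 14.56 and 14.67 in the congenic pools and 13.87 and 13.91 in the wild-type pools (0.72 ± 0.084, limma adjusted p = 0.03347). Removal of any single pool ended that call, as did the replicate number as a block and a fit without the variance trend. Gpx3, a secreted glutathione peroxidase, read 13.81 and 13.53 against 14.45 and 14.39 (-0.75 ± 0.12, limma adjusted p = 0.0901). Pon1, a plasma lactonase made by liver, read 11.13 and 10.95 against 10.26 and 9.99 (0.91 ± 0.23). Ugdh, which makes the UDP-glucuronic acid that glucuronosyltransferases use, read 15.06 and 15.19 against 15.44 and 15.62 (-0.41 ± 0.094, limma adjusted p = 0.178), while Ugt2b34 and Ugt2b38 lay above 0. Of these 4, Glo1 alone lies on chromosome 17. The strains did not overlap in any of the 4, which held for 49.4% of all probes. Of the 8 compared receptors and regulators, 5 were positive, 0 passed (limma) and 2 reached an unadjusted p under 0.05, and of 6 compared genes that supply electrons or haem to P450s none passed or had an unadjusted p under 0.05 (limma).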

How the data were processed

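Values are log2 signals of single-colour arrays, as deposited by the authors. Per the labels' protocols, 1 microgram of TRIzol-extracted RNA gave the digoxigenin-labelled cRNA. How the authors normalized, their log base and their rule for blank cells are not stated in the sources used. The base was inferred from the range (6.73 to 21.2). Probes were named through the platform's annotation, and all 94 members matched a RefSeq gene of the same symbol (GRCm38.p6).

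Probes with a value on all arrays were compared with limma 3.58.1 in R 4.3.3 (eBayes with trend, with 3.97 prior and 2 residual degrees of freedom, two-sided tests, Benjamini-Hochberg adjustment over 13475 probes), without further normalization or a filter on dim probes, and tested on simulated data. The number of arrays limits the precision. Intervals are limma's 95% intervals. Lists took each gene's compared probe with the highest mean. Named were members on chromosome 17, those that passed or were read in 1 strain only, and in each class the 4 with the smallest p and the 2 with the highest mean. Of the related genes, those that passed and the 4 with the smallest p were named. Other members and markers were chosen after their values were seen. The members and lists were chosen with earlier results of these data known. Alternatives are under the closing heading on processing. Figures used matplotlib 3.10.9.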

Additional observations from a re-analysis of the deposited data

How the results depend on the processing

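The count of 0 members past the threshold held under 10 of 11 alternatives, and was 1 (Gstm2) without wild-type pool 2. Leaving out 1 pool gave between 0 and 1 members and between 15 and 168 probes in all. The count of 64 probes was 35 with the replicate number as a block and 20 without the variance trend. With the replicate block no member passed, and 11 had an unadjusted p under 0.05 in limma, against 15 without it and 7 without the variance trend. The differences of pool 1 and pool 2 in the strains correlated at -0.064 over all probes. That value cannot show whether pools of the same number were handled together. The median over members was 0.016 among probes at or above the median level, 0.048 with 1 blank allowed, and between 0.030 and 0.064 when 1 pool was left out. No setting turned its sign.

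Among 50 named members on all arrays, 14 changed sign in at least 1 setting, each when a pool was left out. These did not include any of the 15 with an unadjusted p under 0.05. In all of those 15 the strains did not overlap, so leaving out 1 pool could not turn the sign. That they kept it is therefore no sign of stability. Ranges over the pools left out give the signs of the 14. They ran for Adh1 from -0.14 to 0.016, for Adh7 from -0.0094 to 0.13, for Akr1a1 from -0.011 to 0.18, for Akr1b10 from -0.53 to 0.020, for Aldh6a1 from -0.12 to 0.13, for Ces1d from -0.14 to 0.17, for Ces1g from -0.13 to 0.58. They ran for Cyp27b1 from -0.96 to 0.68, for Cyp4f13 from -0.031 to 0.20, for Cyp4v3 from -0.072 to 0.023, for Cyp7a1 from -0.38 to 0.22, for Gclc from -0.39 to 0.34, for Gstp1 from -0.22 to 0.32, for Ugt2b35 from -0.21 to 0.22.
Related genes past the threshold numbered 0 with the block, without the trend and without any 1 pool, and 2 with robust variance. With 2 pools per strain and unknown background signal, small differences could go undetected, in bright probes as well as dim ones. Ugt2b34, which read 16.79 to 17.25, differed by 0.37 ± 0.075 and did not pass.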
